A study of Homo sapiens with 12 samples.

Results

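The molecular chaperones described here are the heat shock protein 70 (HSP70) family with HSP110, the cytosolic HSP90 proteins, the small heat shock proteins, the mitochondrial chaperonin pair, the J-domain (DNAJ) cochaperones, and 5 of their regulators and partners. Members were chosen by name from a gene-level RNA-seq count table: protein-coding genes with HSPA, HSPB or DNAJA, DNAJB and DNAJC symbols, plus HSP90AA1, HSP90AB1, HSPH1, HSPD1, HSPE1, HSF1, HSF2, BAG3, AHSA1 and STIP1, with at least 10 counts summed over 12 libraries. The rule kept 68 of 62914 rows of the table. Of 75 rows with such a symbol, 2 were pseudogenes in the annotation and 5 were below 10 counts. At the count minimum, DNAJC12 was just inside with 10 counts and HSPB9 just outside with 7. The 68 members comprise 15 HSP70 and HSP110 genes, 2 HSP90 genes, 3 small HSP genes, 2 chaperonin genes, 5 regulators and cochaperones, 4 DNAJA, 11 DNAJB and 26 DNAJC genes.

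THP-1 is an established human monocytic leukemia cell line, and all 12 libraries came from it. The groups, of 3 libraries each, were an untreated control, a cGAMP group (3'-3'-cGAMP at 1 μg/mL) and a lower and a higher dose of chlorquinaldol (20 and 50 μM). All 3 treatments lasted 8 h. The cyclic dinucleotide 3'-3'-cGAMP is a ligand of STING, the adaptor of cytosolic DNA sensing, and served the study as its positive control for antiviral signaling. Chlorquinaldol is a halogenated 8-hydroxyquinoline antiseptic. The vehicle and the incubation time of the untreated cells are not given in the sources used here, nor is it stated whether the 3 libraries of a group came from separate cultures, so p-values measure only the spread between these libraries.

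Chaperones bind unfolded or partly folded proteins and keep them from aggregating. HSP70 proteins do so in cycles of ATP hydrolysis that DNAJ proteins start and nucleotide exchange factors such as HSP110 end, and clients such as kinases and steroid receptors then pass to HSP90 with the help of cochaperones. Unfolded protein in the cytosol releases the transcription factor HSF1, which binds heat shock elements in promoters of chaperone genes, whereas unfolded protein in the endoplasmic reticulum (ER) acts on a separate set of genes led by HSPA5.

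Libraries held 17620929 to 19222607 counts. The members together took 0.978% to 1.018% of the counts in untreated libraries and 0.967% to 1.03% with cGAMP. The share was 0.765% to 0.843% at 20 μM and 0.771% to 0.89% at 50 μM chlorquinaldol, below every untreated library. The line's identity was checked with 12 monocyte genes, of which 11 were over 1 FPKM (fragments scaled to gene length and library size). Their summed FPKM ranged over 2397 to 2537 in the untreated group and was higher in the cGAMP group (2750 to 2995) and the 20 μM group (2877 to 3280) and lower in the 50 μM group (1852 to 2125). This sum is carried by a few genes, chiefly FCER1G, with means of 1039 FPKM untreated and 677 at 50 μM, and of the 12 genes 5 were called higher and 5 lower at each chlorquinaldol dose. Among markers of other cell types, MS4A1, HBB and PF4 were listed at 0 in all libraries and EPCAM in 11 of 12, while NKG7 was at 15.8 ± 1.38 FPKM (SD, n = 3) in untreated and 22.7 ± 2.63 in 50 μM libraries. The part of these markers in the results was not tested. In bulk RNA, fewer cells and less RNA per cell cannot be told apart.

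Levels of the members in untreated cells spanned several orders of magnitude on the FPKM scale, which corrects for gene length. HSP90AB1, the constitutive cytosolic HSP90, was highest at 1005 ± 27.3 FPKM, followed by the constitutive HSP70 HSPA8 at 689 ± 42.3 and the small heat shock protein HSPB1 at 506 ± 24.6. Next came the stress-responsive HSP90AA1 at 354 ± 9.61, then the mitochondrial chaperonin genes HSPE1 at 321 ± 14.4 and HSPD1 at 303 ± 3.14, whose libraries did not overlap with each other. HSPA1B, the main stress-inducible HSP70 of this table, was at 215 ± 42.7 FPKM, and the ER chaperone HSPA5 (BiP) at 185 to 204 FPKM, within the range of the HSPA1B libraries. The first 5 genes held 55.0% of the summed FPKM of all members, and 9 of 68 members were under 1 FPKM.

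The order changed with chlorquinaldol. As group means, the members summed to 5228 FPKM without treatment and 5273 with cGAMP, but to 4095 and 3979 FPKM at the lower and the higher chlorquinaldol dose. HSPA5 was eighth in untreated cells, and ranked 4 at 50 μM with 237 to 265 FPKM. HSPE1 went from rank 5 to rank 8, at 143 ± 6.42 FPKM. AHSA1 went from rank 12 with 121 ± 8.15 FPKM to rank 16 with 46.2 ± 2.54. Members at or over 100 FPKM numbered 13 in untreated cells, 8 at 20 μM and 9 at 50 μM.

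**Figure D1:**
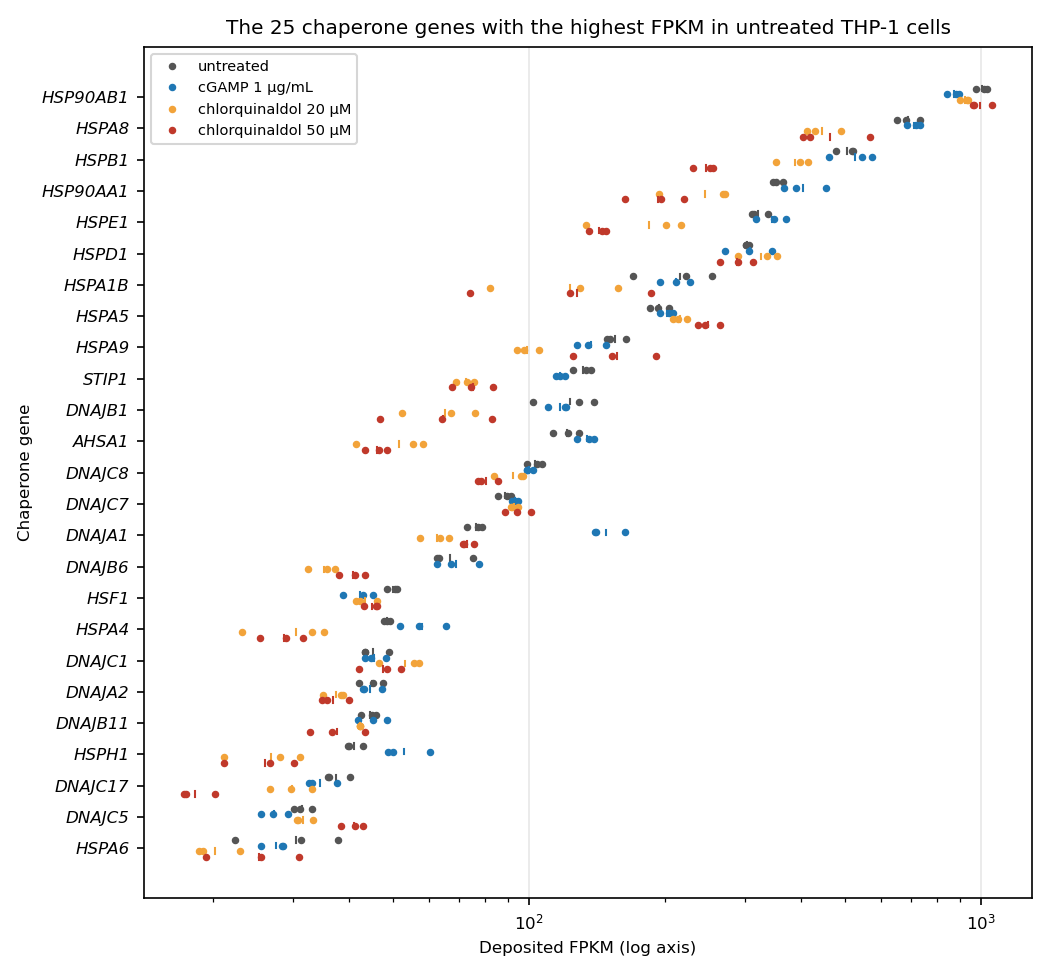
Deposited FPKM (log axis) of the 25 chaperone genes with the highest mean in untreated THP-1 cells, with a point for each library and a tick for each group mean. HSP90AB1 lies between 842 and 1055 FPKM in all libraries, while the chlorquinaldol libraries of AHSA1, HSPE1 and STIP1 lie to the left of all untreated ones and those of HSPA5 to the right.

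Promoter sequence was read for 62 members from RefSeq (GRCh38.p14), as windows from 250 bases before to 50 bases after each annotated start, 84 windows in all. The windows of HSPA8, HSP90AA1, HSPA6 and HSPA5 are shown because they hold the elements through which cytosolic and ER stress are known to act, and because these genes differed in direction with chlorquinaldol. Each line gives the 250 bases before the start, 5′ to 3′ on the gene's strand, with the heat shock element run (HSPA8, HSP90AA1, HSPA6) or the ER stress element (HSPA5) in capitals. They lie at chr11:123062137-123062386 (minus strand) for HSPA8, chr14:102087045-102087294 (minus) for HSP90AA1, chr1:161524290-161524539 (plus) for HSPA6 and chr9:125241344-125241593 (minus) for HSPA5.
HSPA8: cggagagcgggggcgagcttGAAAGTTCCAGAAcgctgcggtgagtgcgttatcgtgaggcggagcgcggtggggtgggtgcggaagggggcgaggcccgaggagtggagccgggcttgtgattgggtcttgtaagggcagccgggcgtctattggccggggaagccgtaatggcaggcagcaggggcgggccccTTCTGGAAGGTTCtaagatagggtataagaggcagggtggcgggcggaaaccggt
HSP90AA1: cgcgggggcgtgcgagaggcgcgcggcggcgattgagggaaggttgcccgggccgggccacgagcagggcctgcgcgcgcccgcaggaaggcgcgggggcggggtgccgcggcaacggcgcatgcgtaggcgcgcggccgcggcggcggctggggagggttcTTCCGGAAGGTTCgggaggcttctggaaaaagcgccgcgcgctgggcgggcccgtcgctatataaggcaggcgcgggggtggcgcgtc
HSPA6: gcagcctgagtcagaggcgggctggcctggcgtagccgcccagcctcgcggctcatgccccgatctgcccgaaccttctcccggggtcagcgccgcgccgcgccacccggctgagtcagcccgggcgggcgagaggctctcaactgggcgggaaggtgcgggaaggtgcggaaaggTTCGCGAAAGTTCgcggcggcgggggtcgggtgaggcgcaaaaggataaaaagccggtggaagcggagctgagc
HSPA5: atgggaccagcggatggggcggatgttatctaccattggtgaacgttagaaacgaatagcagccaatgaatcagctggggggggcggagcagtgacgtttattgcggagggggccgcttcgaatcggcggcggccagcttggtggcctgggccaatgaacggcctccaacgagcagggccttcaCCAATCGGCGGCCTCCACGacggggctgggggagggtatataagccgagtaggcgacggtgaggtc

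HSPA8 held 2 runs of 3 heat shock units, the nearer beginning 55 bases before the start, and those of HSP90AA1 and HSPA6 began at 88 and 74 bases. The ER stress element of HSPA5 began 66 bases before its start. Motifs were searched on both strands, from 250 bases before to 50 after each start. The 3-unit run, in which TTC and GAA alternate 3 times with any 2 bases between them, was in 7 of 62 members (11.3%), against 0.608% of 27305 genes in the same table. These 7 were DNAJA1, DNAJB6, HSP90AA1, HSP90AB1, HSPA6, HSPA8 and HSPD1. The shorter core (GAANNTTC or TTCNNGAA), which every 3-unit run contains, was in 21 members (33.9%), against 16.2% of all genes. The ER stress element, which is CCAAT and CCACG with any 9 bases between them, was in HSPA5 and no other member (1.61%), against 0.0916% of all genes. With only the window whose start lies nearest to the annotated 5′ end of the gene, a setting added after seeing the data, the core was in 12 of 62 members and the 3-unit run in 4. The share of all genes was not counted in that setting, so the 16.2% and 0.608% above are not its match. Counted by window, the core was in 22 of 84 member windows and in 13.5% of all 35116 windows. A match is a description of these letters and not evidence of binding.

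Of the 68 members, 62 had enough counts to be tested. At 20 μM chlorquinaldol against untreated cells, 9 of 62 rose and 28 fell (14.5% and 45.2%), where 27.1% of all 16628 tested genes rose and 28.0% fell. At 50 μM 13 rose and 28 fell (21.0% and 45.2%), against 32.2% and 34.7% of all genes. Called in either direction were 59.7% and 66.1% of members, against 55.1% and 66.9% of all genes. The share that fell was therefore above that of all genes at both doses and the share that rose below it. The median log2 change of the tested members was -0.17 at 20 μM and -0.14 at 50 μM, and that of all tested genes 0.00 and -0.03. From 20 to 50 μM, 15 members rose and 12 fell (24.2% and 19.4%), close to the 19.1% and 19.0% of all genes. With cGAMP, 8 rose and 4 fell (12.9% and 6.45%), against 11.6% and 11.8% of all genes, a share near the background for those that rose. In either direction this was 19.4% of members against 23.3% of all genes, and for the step between the doses 43.5% against 38.1%. The 3 comparisons with untreated cells share the same untreated libraries.

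The balance of these counts depended on the fit for some comparisons. The limma fit below differs from the main one in unit, scaling and test, and the part of each was not tested. In limma on log2(FPKM + 1) of the deposited values, cGAMP gave 2 members higher and 5 lower, and the step from 20 to 50 μM gave 7 and 12. The same fit gave 4 and 25 at 20 μM and 8 and 28 at 50 μM, still mostly lower. DESeq2 gave 8 and 2 with cGAMP and 17 and 8 for the step.

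**Figure D2:**
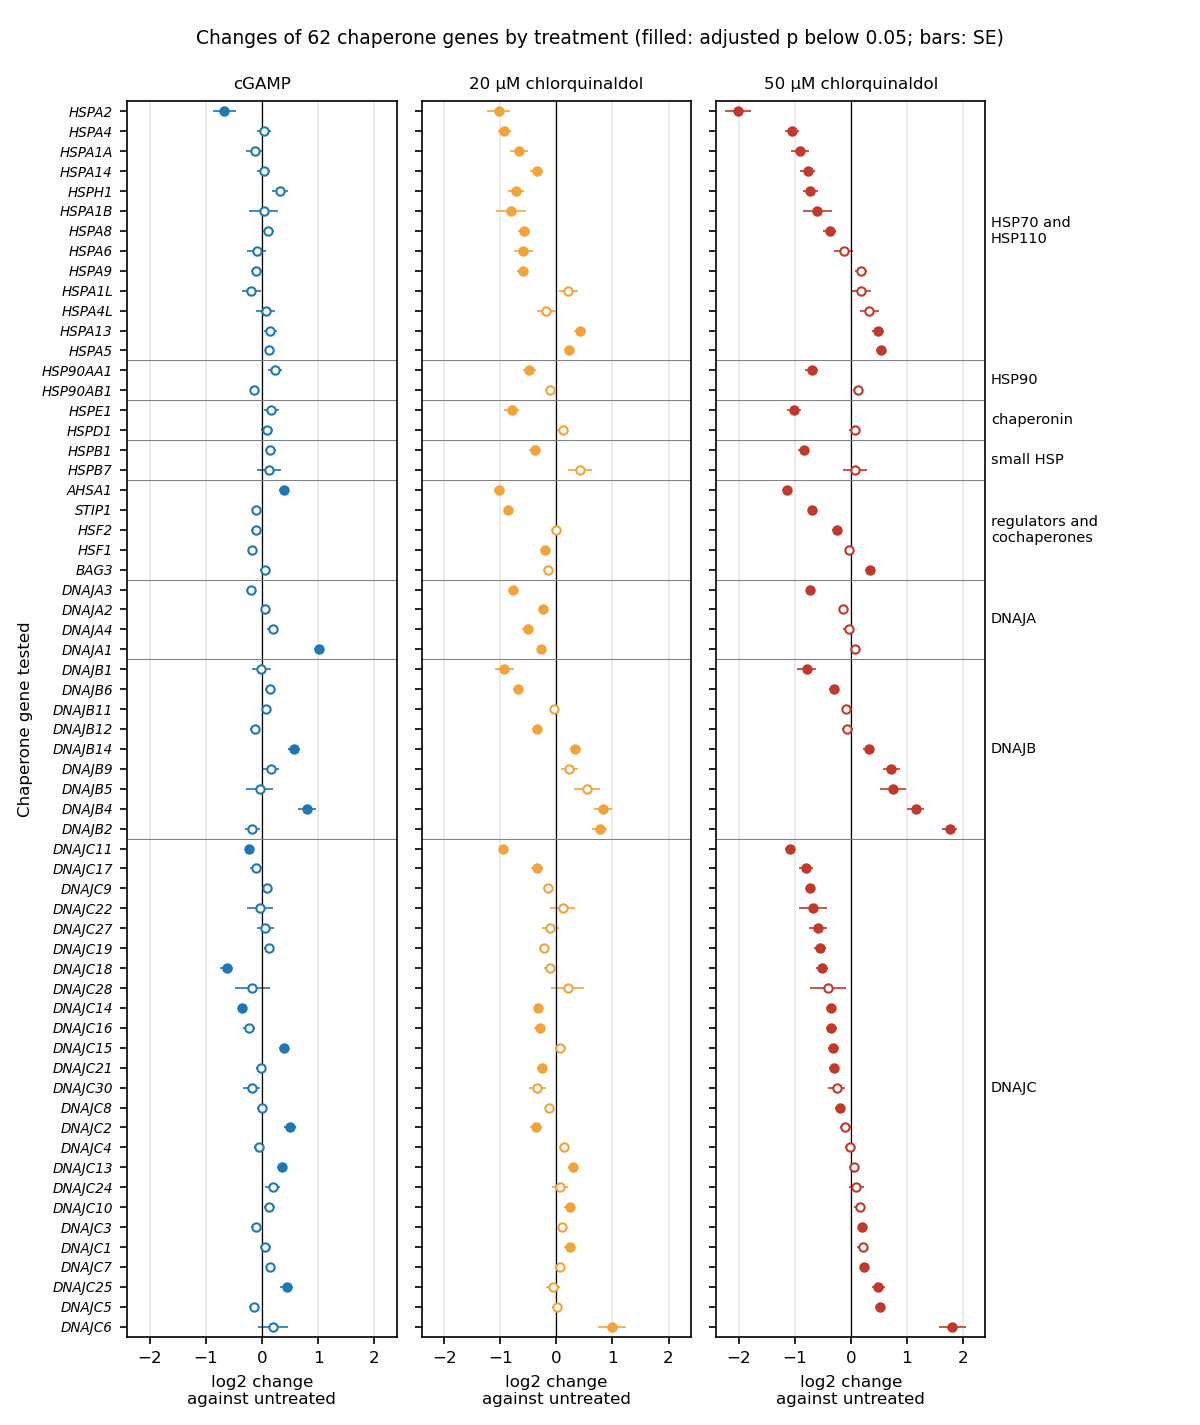
Log2 change against untreated cells of the 62 tested chaperone genes with cGAMP, 20 μM and 50 μM chlorquinaldol, by class, with bars of 1 SE and filled points where the adjusted p was below 0.05. HSP70 and cochaperone genes lie mostly left of 0 with chlorquinaldol, reaching -2.01 for HSPA2 at 50 μM, while DNAJB2 and DNAJC6 reach 1.76 and 1.81.

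HSP70 genes mostly fell with chlorquinaldol. Of 13 tested HSP70 and HSP110 genes, 9 fell and 2 rose at 20 μM, and 7 fell and 2 rose at 50 μM. Their medians were -0.59 and -0.38 on the log2 scale. At 20 μM 69.2% of them fell and 15.4% rose, against 28.0% and 27.1% of all genes. At 50 μM 53.8% fell and 15.4% rose, against 34.7% and 32.2% of all genes. The HSP70 and HSP110 genes lower at both doses were HSPA1A, HSPA1B, HSPA2, HSPA4, HSPA8, HSPA14 and HSPH1. The 2 that rose, HSPA5 and HSPA13, are ER proteins.

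HSPA8, which folds newly made proteins and takes clathrin coats apart in unstressed cells, lies at chr11:123057489-123063230. Its normalised level in CPM (counts scaled to a common library size with the TMM factor) was 1314, 1267 and 1210 in untreated libraries, 789, 964 and 780 at 20 μM and 882, 874 and 1166 at 50 μM. All 6 chlorquinaldol libraries were below all untreated ones. The log2 change was -0.58 ± 0.11 (SE, adjusted p = 0.00023) at 20 μM and -0.38 ± 0.11 (adjusted p = 0.00572) at 50 μM. The 50 μM value fell to -0.24 and was no longer called without the first or without the second 50 μM library. With cGAMP the libraries were at 1364, 1377 and 1342 CPM, a change of 0.11 ± 0.11 that did not pass.

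HSPA1B and HSPA1A, neighbouring genes on chromosome 6 (chr6:31827735-31830255 and chr6:31815464-31817946), encode the same stress-inducible HSP70. Their transcripts share 68.8% and 69.9% of their 100-base windows exactly, so the split of reads between them is uncertain. HSPA1A took 2.59% ± 0.427 (SD, n = 3) of the pair's counts in untreated cells and 2.23% ± 0.481 at 50 μM. HSPA1B was at 482, 375 and 570 CPM untreated, 181, 296 and 338 at 20 μM and 471, 178 and 291 at 50 μM. The 20 μM libraries were all below the untreated ones, but the first 50 μM library lay among them. HSPA1B fell by 0.81 ± 0.26 (adjusted p = 0.0141) at 20 μM and by 0.60 ± 0.26 (adjusted p = 0.0485) at 50 μM.

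Both calls of HSPA1B were weak. The 20 μM call was lost with DESeq2 (-0.79) and without the third untreated (-0.66) or the first 20 μM library (-0.54). The 50 μM call was lost with DESeq2 (-0.56), with RLE scaling (-0.55), with only the 2 groups fitted (-0.59) and in 10 of the 12 fits that left out a library, among them those without the second 50 μM (-0.25) and without the third untreated library (-0.45). HSPA1A, with 12.4 ± 1.25 CPM untreated, 7.82 ± 1.27 at 20 μM and 6.66 ± 1.74 at 50 μM, fell by 0.66 ± 0.16 (adjusted p = 0.0016) and 0.90 ± 0.16 (adjusted p = 8.24e-05). With cGAMP the summed level of both genes was 496 ± 42.3 CPM, next to 488 ± 98.5 in untreated cells.

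HSPA6, a single-exon HSP70 gene that many cells transcribe only after strong stress, was already at 63.3, 46.1 and 78.9 CPM in untreated THP-1 cells. It was at 38.3, 40.3 and 46.1 CPM at 20 μM, where the highest library equalled the lowest untreated one to the digits shown. At 50 μM it was at 72.8, 43.2 and 56.5 CPM, the second library just below the untreated range and the others within it. HSPA6 changed by -0.59 ± 0.17 (adjusted p = 0.00719) at 20 μM, a call lost without the third untreated library (-0.39), and by -0.13 ± 0.17 (adjusted p = 0.524) at 50 μM. The neighbouring pseudogene HSPA7, which is no member, shares 34.4% of its 100-base windows with HSPA6 and was at 10.9, 12.3 and 12.8 CPM untreated, 44.0 ± 2.8 at 20 μM and 55.1 ± 8.93 at 50 μM.

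HSPA2 had the largest change of any tested member in the fit on counts. A testis-enriched HSP70, it was low here, at 4.17, 4.36 and 3.21 CPM in untreated libraries, 2.00, 1.71 and 2.00 at 20 μM and 0.986, 0.712 and 1.20 at 50 μM. Each dose step lowered all libraries of the group below those of the step before. HSPA2 fell by 1.03 ± 0.20 (adjusted p = 0.000363) at 20 μM and by 2.01 ± 0.23 (adjusted p = 5.24e-07) at 50 μM, which is 4.04-fold lower (-0.98 in limma on log2(FPKM + 1) and -1.94 with a pseudocount of 0.1), and the step between the doses was -0.97 ± 0.25 (adjusted p = 0.00486). It fell with cGAMP as well, by 0.67 ± 0.20 (adjusted p = 0.0208), a call lost with DESeq2 (-0.65), in limma on log2(FPKM + 0.1) (-0.69) and without the first (-0.62) or the second (-0.58) untreated library or the second (-0.61) or the third (-0.56) cGAMP library.

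HSP110 proteins act as nucleotide exchange factors of HSP70. HSPA4 (APG-2) was at 171, 162 and 165 CPM untreated, 66.8, 93.2 and 102 at 20 μM and 88.0, 72.9 and 79.9 at 50 μM, and HSPH1 (HSP105) at 129, 123 and 121, then 62.1, 77 and 86.3, then 90.3, 56.6 and 79.9. Neither gene had a chlorquinaldol library within the untreated range. HSPA4 fell by 0.93 ± 0.12 (adjusted p = 5.47e-06) and 1.05 ± 0.12 (adjusted p = 6.74e-07), HSPH1 by 0.72 ± 0.14 at both doses (adjusted p = 0.000264 and 0.000195). HSPA4L, a relative of HSPA4, was at -0.18 ± 0.17 and 0.33 ± 0.17 and did not pass at either dose, though its step of 0.52 ± 0.17 did (adjusted p = 0.0217), with the third 50 μM library at 37.2 CPM and the others at 19.0 and 22.6. HSPA1L, a testis-enriched HSP70, changed in no comparison.

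The HSP90 genes diverged. HSP90AA1 (chr14:102080738-102139699), the inducible form, was at 947, 936 and 966 CPM in untreated libraries, 541, 777 and 719 at 20 μM and 612, 499 and 647 at 50 μM. It fell by 0.48 ± 0.12 (adjusted p = 0.00276) and 0.70 ± 0.12 (adjusted p = 7.4e-05), all 6 libraries lying below the untreated range. HSP90AB1, the constitutive form, was at 2231, 2312 and 2225 CPM untreated, 2110, 2165 and 1972 at 20 μM and 2486, 2342 and 2547 at 50 μM. Its changes of -0.12 ± 0.08 (adjusted p = 0.221) and 0.12 ± 0.08 (adjusted p = 0.168) did not pass, while the step between the doses did, at 0.24 ± 0.08 (adjusted p = 0.0216). That step was not called in limma on FPKM (0.10) or with only the 2 groups fitted (0.24), and the 50 μM change of HSP90AB1 was called with DESeq2 (0.16) and without the second 50 μM (0.23) or any of the 20 μM libraries (0.19).

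AHSA1 and STIP1 serve HSP90, AHSA1 as the activator of its ATPase and STIP1 (HOP) as the adaptor that takes clients over from HSP70. AHSA1 was at 91.1, 95.4 and 89.2 CPM in untreated libraries, 114, 125 and 122 with cGAMP, 37.6, 49.3 and 49.3 at 20 μM and 42.6, 41.4 and 41.3 at 50 μM. The cGAMP libraries lay above and the chlorquinaldol libraries below the untreated range. AHSA1 overlaps VIPAS39, whose counts came to 41.7% of its own. AHSA1 fell by 1.02 ± 0.09 (adjusted p = 7.78e-08) and 1.14 ± 0.09 (adjusted p = 7.42e-09), or 2.03-fold and 2.20-fold, and rose by 0.39 ± 0.09 (adjusted p = 0.00416) with cGAMP. The cGAMP change of AHSA1 was 0.15 and not called in limma on FPKM. STIP1 went from 237, 236 and 223 CPM untreated to 120, 138 and 126 at 20 μM and 134, 145 and 153 at 50 μM. It fell by 0.86 ± 0.08 (adjusted p = 8.33e-08) and 0.69 ± 0.08 (adjusted p = 4.44e-07), and its cGAMP change of -0.10 ± 0.08 did not pass.

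BAG3, which links HSP70 to autophagy of aggregates, moved at the higher dose. It was at 31.0, 29.5 and 29.5 CPM untreated, 29.5, 27.2 and 24.1 at 20 μM and 39.3, 34.8 and 40.1 at 50 μM. BAG3 rose by 0.34 ± 0.09 (adjusted p = 0.00207) at 50 μM, a call lost in limma on FPKM (0.19 with a pseudocount of 1), and by 0.50 ± 0.09 (adjusted p = 0.000249) from 20 to 50 μM. Its change at 20 μM was -0.15 ± 0.09 and did not pass.

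The transcription factor genes moved little. HSF1, the main activator of the heat shock response, was at 83.7, 90.3 and 88.4 CPM untreated, 76.8, 76.9 and 74.0 at 20 μM and 91.9, 86.8 and 79.1 at 50 μM. Its change at 20 μM, -0.21 ± 0.08 (adjusted p = 0.043), was lost in 17 of 24 alternatives, among them DESeq2 (-0.19) and the fit with a replicate block (-0.20). HSF2 changed by -0.25 ± 0.09 (adjusted p = 0.0167) at 50 μM, a call lost in 11 of 24 alternatives, among them DESeq2 (-0.21) and the fit without the second 50 μM library (-0.12). HSF1 overlaps DGAT1 in the annotation, whose counts came to 65.2% of its own. These values are mRNA levels, and HSF1 is known to be controlled mainly as a protein.

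HSPB1 (HSP27), the main small heat shock protein of these cells, fell in steps. It was at 209, 234 and 244 CPM in untreated libraries, 164, 180 and 180 at 20 μM and 140, 133 and 112 at 50 μM. The groups did not overlap. HSPB1 fell by 0.39 ± 0.10 (adjusted p = 0.0023) and 0.84 ± 0.10 (adjusted p = 7.04e-07), and by 0.44 ± 0.10 (adjusted p = 0.00162) between the doses. HSPB7, at 2.52 ± 0.491 CPM untreated, changed in no comparison, and HSPB6 was too low to test.

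The mitochondrial chaperonin pair came apart. HSPD1 (HSP60) forms the folding chamber and HSPE1 (HSP10) its lid, and the genes lie on opposite strands of chromosome 2. HSPE1 (chr2:197499994-197503457) was at 95.6, 105 and 98.4 CPM in untreated libraries, 41.8, 69.5 and 60.9 at 20 μM and 53.2, 46.5 and 48.7 at 50 μM, and fell by 0.80 ± 0.13 (adjusted p = 5.81e-05) and 1.01 ± 0.13 (adjusted p = 2.68e-06). HSPD1 (chr2:197486581-197516737) was at 583, 597 and 617 CPM, then 570, 719 and 647, then 710, 561 and 614, and its changes of 0.11 ± 0.10 (adjusted p = 0.396) and 0.07 ± 0.10 (adjusted p = 0.57) did not pass. In each library, the ratio of HSPE1 to HSPD1 FPKM lay between 1.02 and 1.12 in the untreated group and between 1.02 and 1.21 in the cGAMP group, but between 0.462 and 0.614 at the lower and between 0.475 and 0.515 at the higher chlorquinaldol dose, so the chlorquinaldol libraries did not overlap with the others. The annotated spans of HSPD1 and HSPE1 overlap, and with strand not given reads there may have been exchanged.

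**Figure D3:**
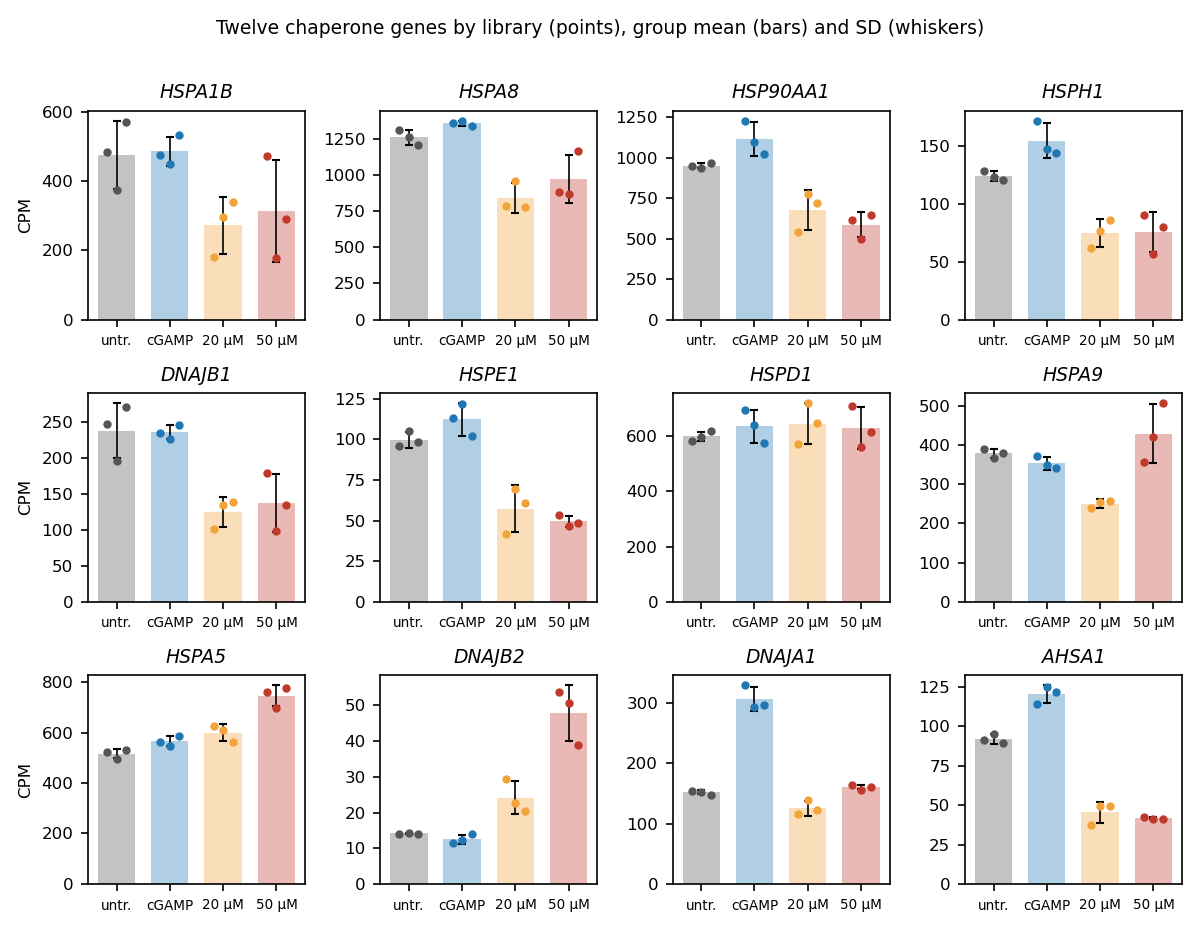
CPM by library (points), group mean (bars from 0) and SD (whiskers, n = 3) for 12 chaperone genes in untreated, cGAMP, 20 μM and 50 μM libraries. HSPE1 and AHSA1 are lower in all chlorquinaldol libraries, HSPD1 is level, HSPA9 is low at 20 μM only, HSPA5 and DNAJB2 are highest at 50 μM, and DNAJA1 is highest with cGAMP.

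DNAJ proteins deliver clients to HSP70 and start its ATPase. All 4 DNAJA genes, relatives of the bacterial DnaJ, fell at 20 μM, and 1 of them, the mitochondrial DNAJA3 (TID1), fell at 50 μM. Of all genes 28.0% fell at 20 μM and 34.7% at 50 μM. DNAJA3 went from 61.3 ± 4.07 CPM to 36.0 ± 1.48 and 37.2 ± 2.46, a fall of 0.77 ± 0.08 (adjusted p = 3.22e-07) and 0.72 ± 0.08 (adjusted p = 2.99e-07). The cytosolic DNAJA1 was lower at 20 μM, at -0.27 ± 0.08 (adjusted p = 0.00813), a call lost without the filter on low counts (-0.23) and without the first (-0.17) or the third (-0.21) 20 μM library. DNAJA4 fell by 0.51 ± 0.10 (adjusted p = 0.000367) and DNAJA2 by 0.24 ± 0.07 (adjusted p = 0.0106). At 50 μM DNAJA1, DNAJA2 and DNAJA4 stood at 0.08, -0.14 and -0.04, and none of the 3 passed.

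DNAJB genes moved in both directions, with 3 of 9 tested rising and 3 falling at 20 μM and 5 rising and 2 falling at 50 μM. The 20 μM shares, 33.3% each way, were near the 27.1% and 28.0% of all genes. At 50 μM they were 55.6% and 22.2%, against 32.2% and 34.7% of all genes. DNAJB1 (HSP40), the stress-inducible partner of HSPA1A, was at 247, 196 and 271 CPM untreated, 101, 134 and 139 at 20 μM and 179, 98.4 and 134 at 50 μM. It fell by 0.93 ± 0.17 (adjusted p = 0.00016) and 0.79 ± 0.17 (adjusted p = 0.000472), all 6 libraries below the untreated range. DNAJB1 overlaps TECR in the annotation, whose counts came to 45.1% of its own. DNAJB6, which suppresses aggregation of polyglutamine proteins, fell by 0.68 ± 0.09 (adjusted p = 4.59e-06) and 0.30 ± 0.09 (adjusted p = 0.00479). DNAJB2, which carries ubiquitin-interacting motifs and sorts clients to the proteasome, rose the most of the DNAJB genes at 50 μM. It was at 14.0, 14.3 and 14.1 CPM in untreated libraries, 29.3, 22.7 and 20.5 at 20 μM and 53.8, 50.7 and 38.9 at 50 μM. The 3 groups did not overlap. DNAJB2 rose by 0.77 ± 0.14 (adjusted p = 0.000142) and 1.76 ± 0.14 (adjusted p = 4.12e-09), or 1.71-fold and 3.38-fold.

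DNAJB4, a close relative of DNAJB1, went the other way from it. DNAJB4 was at 5.02, 4.20 and 5.90 CPM untreated, 8.58, 10.9 and 7.60 at 20 μM and 11.4, 9.70 and 12.8 at 50 μM, above the untreated range throughout. It rose by 0.83 ± 0.16 (adjusted p = 0.000233) and 1.16 ± 0.15 (adjusted p = 3.44e-06), with the 20 μM call lost in limma on FPKM (0.19 with a pseudocount of 1 and 0.23 with 0.1) and the 50 μM change smaller there (0.50 and 0.59). DNAJB5, at 2.95 ± 0.645 CPM untreated and 4.97 ± 1.07 at 50 μM, rose by 0.75 ± 0.23 (adjusted p = 0.00745). At 20 μM DNAJB5 stood at 0.55 ± 0.23 (adjusted p = 0.0507) and was called in 13 of 23 alternatives, among them RLE scaling (0.57) and the fit without the second untreated library (0.74).

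Of 25 tested DNAJC genes, 4 rose and 6 fell at 20 μM, and 5 rose and 12 fell at 50 μM. At 20 μM these shares, 16.0% and 24.0%, were below those of all genes (27.1% and 28.0%), and at 50 μM the 48.0% that fell compares with 34.7% of all genes. DNAJC6 (auxilin), which strips clathrin from vesicles with HSPA8, was at 1.16, 0.871 and 1.86 CPM in untreated libraries, 2.88, 2.67 and 2.25 at 20 μM and 3.89, 4.27 and 5.47 at 50 μM. Its groups followed the dose without overlap at this low level. DNAJC6 rose by 1.00 ± 0.25 (adjusted p = 0.00259) and 1.81 ± 0.24 (adjusted p = 3e-06), or 2.01-fold and 3.51-fold. In limma on log2(FPKM + 1) DNAJC6 was at 0.27 and 0.53, and with a pseudocount of 0.1 at 0.78 and 1.34, still called, while the step between the doses, 0.81 ± 0.22 on counts, was called in neither (0.26 and 0.55). DNAJC5 (cysteine string protein), a chaperone of secretory vesicles, was at 158, 151 and 150 CPM untreated, 162, 155 and 145 at 20 μM and 239, 218 and 200 at 50 μM. DNAJC5 rose at 50 μM by 0.52 ± 0.09 (adjusted p = 3.73e-05), and by 0.51 ± 0.09 (adjusted p = 0.000168) from 20 to 50 μM. DNAJC25 rose by 0.49 ± 0.12 (adjusted p = 0.00229) at 50 μM, from 5.63 ± 0.493 to 7.89 ± 0.537 CPM.

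DNAJC11, a mitochondrial protein associated with the cristae-organizing complex, fell most among DNAJC genes. It was at 67.1, 69.6 and 64.8 CPM untreated, 31.7, 34.2 and 38.4 at 20 μM and 33.5, 32.3 and 28.6 at 50 μM, a fall of 0.95 ± 0.08 (adjusted p = 7.03e-08) and 1.09 ± 0.09 (adjusted p = 4.57e-09). DNAJC9, a histone chaperone, was at 51.2 ± 1.86 CPM untreated and 46.2 ± 2.86 at 20 μM. It fell to 31.0 ± 1.69 at 50 μM, by 0.72 ± 0.08 (adjusted p = 2.45e-07). DNAJC9 overlaps MRPS16 (same strand) and FAM149B1, whose counts came to 97.3% and 43.2% of its own. DNAJC17, a splicing-associated J protein, fell by 0.34 ± 0.11 (adjusted p = 0.016) and 0.80 ± 0.12 (adjusted p = 8.46e-06). The 20 μM call of DNAJC17 was lost without the first (-0.19) or the third (-0.30) 20 μM library and without the filter on low counts (-0.29). DNAJC17 overlaps ZFYVE19 and GCHFR, whose counts came to 196% and 37.9% of its own. DNAJC14 fell by 0.32 ± 0.08 (adjusted p = 0.00176) and 0.36 ± 0.08 (adjusted p = 0.000468).

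DNAJC18, DNAJC22 and DNAJC27 fell at 50 μM and not at 20 μM, with less certainty. DNAJC22, at 1.82 ± 0.386 CPM untreated and 1.13 ± 0.157 at 50 μM, fell by 0.68 ± 0.25 (adjusted p = 0.0215), a call lost with DESeq2 (-0.64), without the filter on low counts (-0.62), in limma on FPKM (-0.17 with a pseudocount of 1) and without the first untreated (-0.49), first 50 μM (-0.56) or second 50 μM library (-0.55). DNAJC27 fell by 0.59 ± 0.16 (adjusted p = 0.00345), a call lost in limma on FPKM (-0.36 with a pseudocount of 1). DNAJC18 fell by 0.52 ± 0.11 (adjusted p = 0.000326) on counts, from 11.4 ± 0.368 to 7.94 ± 0.48 CPM, but its deposited FPKM went from 6.70 ± 0.526 to 9.27 ± 1.66 and limma on FPKM gave 0.41. The direction of DNAJC18 is therefore uncertain.

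Grouped by place, the 11 members listed as ER proteins gave 5 higher and 2 lower at each dose, with medians of 0.22 and 0.20. These shares, 45.5% and 18.2%, compare with 27.1% and 28.0% of all genes at 20 μM and 32.2% and 34.7% at 50 μM. The list need not hold every ER protein among the members, and DNAJC14, which fell at both doses, was not on it. HSPA5 (chr9:125234853-125241330), the central ER chaperone, was at 522, 495 and 529 CPM in untreated libraries, 627, 611 and 561 at 20 μM and 760, 698 and 778 at 50 μM. The 3 groups were ordered by dose without overlap. HSPA5 rose by 0.22 ± 0.08 (adjusted p = 0.0233) and 0.53 ± 0.08 (adjusted p = 9.54e-06), or 1.16-fold and 1.45-fold. The 20 μM call of HSPA5 was lost in limma on FPKM (0.15) and without the second untreated library (0.19). HSPA13, an HSP70-like ATPase of microsomes, rose by 0.42 ± 0.11 (adjusted p = 0.00379) and 0.49 ± 0.11 (adjusted p = 0.000849), with the 50 μM call lost in limma on log2(FPKM + 1) (0.31).

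DNAJB9 (ERdj4), a cofactor of HSPA5 in the disposal of misfolded proteins, was at 8.74, 9.94 and 12.8 CPM untreated, 12.3 ± 0.918 (SD, n = 3) at 20 μM and 18.4, 13.8 and 19.6 at 50 μM. It rose by 0.72 ± 0.15 (adjusted p = 0.000311) at 50 μM, where all libraries were above the untreated ones. At 20 μM it stood at 0.23 ± 0.15 with overlapping groups. DNAJB9 overlaps PNPLA8 and THAP5 in the annotation, whose counts came to 227% and 127% of its own. DNAJB14, a J protein of the ER membrane, rose by 0.34 ± 0.10 (adjusted p = 0.00684) and 0.32 ± 0.10 (adjusted p = 0.00801), though neither was called in limma on FPKM (0.32 and 0.02 with a pseudocount of 1). The related DNAJB12 fell by 0.34 ± 0.09 (adjusted p = 0.00274) at 20 μM and stood at -0.06 ± 0.09 at 50 μM. DNAJB11 (ERdj3) changed in no comparison. DNAJC3 (P58IPK) rose at 50 μM by 0.20 ± 0.08 (adjusted p = 0.0484), and DNAJC1 and DNAJC10 at 20 μM by 0.24 ± 0.10 each (adjusted p = 0.0443 and 0.0476), the last 2 with overlapping libraries.

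None of the 10 mitochondrial members rose at either dose against untreated cells, and 4 fell at 20 μM and 5 at 50 μM, with medians of -0.28 and -0.36. Of all genes 28.0% and 34.7% fell, against 40.0% and 50.0% of these 10. HSPE1, DNAJA3 and DNAJC11 fell at both doses. DNAJC15 and DNAJC19, which are J proteins of the inner membrane import motor, fell at 50 μM by 0.31 ± 0.10 (adjusted p = 0.00871) and 0.55 ± 0.10 (adjusted p = 8.44e-05). HSPA9 (mortalin), the HSP70 of the matrix and of that motor, was at 391, 368 and 379 CPM in untreated libraries, 239, 256 and 258 at 20 μM and 358, 422 and 508 at 50 μM. It was low in all 20 μM libraries, while the 50 μM libraries spanned the untreated range. HSPA9 fell by 0.60 ± 0.10 (adjusted p = 8.27e-05) at 20 μM, and was 0.18 ± 0.10 (adjusted p = 0.125) at 50 μM, so that the step between the doses was 0.78 ± 0.10 (adjusted p = 1.4e-05), a 1.71-fold rise. The 50 μM change of HSPA9 was called in 5 alternatives, all as an increase, among them the fit without the first 50 μM library (0.36).

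By dose, 20 members were lower at both doses, 6 were higher at both and 10 passed at neither. Beside those described above, the 20 included DNAJC16, at -0.30 and -0.35, and DNAJC21, at -0.25 and -0.30. Another 8 were lower at 20 μM only (DNAJA1, DNAJA2, DNAJA4, DNAJB12, DNAJC2, HSF1, HSPA6 and HSPA9) and 8 at 50 μM only (DNAJC8, DNAJC9, DNAJC15, DNAJC18, DNAJC19, DNAJC22, DNAJC27 and HSF2). A further 3 were higher at 20 μM only and 7 at 50 μM only. No member was called in opposite directions at the 2 doses. Of all genes 28.0% fell and 27.1% rose at 20 μM, and 34.7% and 32.2% at 50 μM. The share of all genes with each joint pattern was not counted, and both doses share the untreated libraries. The patterns are therefore not shown to be particular to these members. Passing at a single dose does not show that the doses differ, which the direct comparison of 50 with 20 μM tested. It showed a rise from 20 to 50 μM for 6 of the 28 members that fell at 20 μM: DNAJA1, DNAJA4, DNAJB6, DNAJB12, HSPA6 and HSPA9. Over all genes, whatever their call at 20 μM, 19.1% rose and 19.0% fell in this step. The 28 were picked by their low 20 μM libraries, which the step uses again, and that choice favours a rise. The share among all genes that fell at 20 μM was not counted. The rise of HSPA6, 0.47 ± 0.17 (adjusted p = 0.0411), came from overlapping groups and was lost in 10 alternatives besides the stricter thresholds, among them upper-quartile scaling (0.42), limma on log2(FPKM + 1) (0.29) and the fit without the first 50 μM library (0.29). A further fall from 20 to 50 μM was called for 4 of the 20 members lower at both doses: DNAJC17, HSPA2, HSPA14 and HSPB1.

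**Figure D4:**
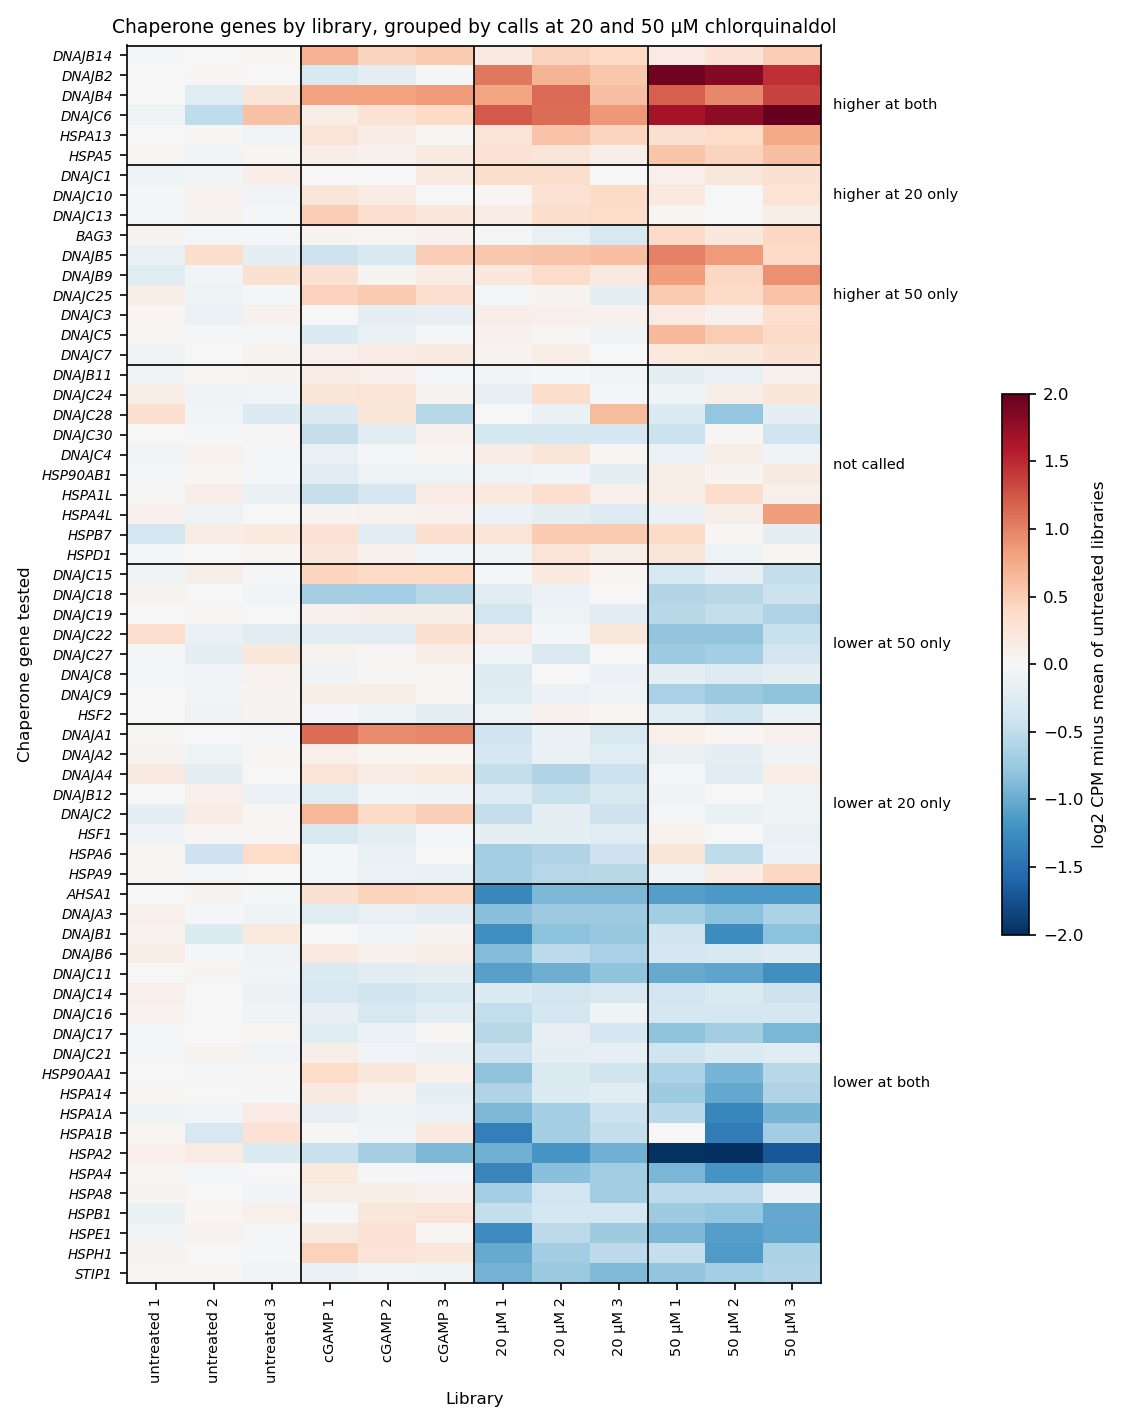
Log2 CPM minus the mean of the untreated libraries for the 62 tested chaperone genes (rows, grouped by their calls at 20 and 50 μM chlorquinaldol) in each of 12 libraries (columns), with values beyond the ends of the colour scale drawn at its ends. The 20 genes lower at both doses are blue in nearly all chlorquinaldol libraries and near white with cGAMP, apart from a few such as HSPA2, and DNAJA1 is red with cGAMP alone.

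The 7 members with the 3-unit heat shock run did not move as a block. At 20 μM 5 of them fell (DNAJA1, DNAJB6, HSP90AA1, HSPA6 and HSPA8) and at 50 μM 3 did (DNAJB6, HSP90AA1 and HSPA8), and none rose at either dose. HSP90AB1 and HSPD1 hold the same run and passed at neither dose. In HSPD1 the run began 245 bases before the start, on the side facing HSPE1, whose start lies 539 bases from the inner HSPD1 start. The run lies farther from the HSPE1 start than the search windows reached. HSPE1, which fell at both doses, is therefore not among the 7, and a part of the run in its fall was not tested. Of 19 tested members with the core, 12 fell and 2 rose at 20 μM and 9 fell and 2 rose at 50 μM. Of 38 tested with windows that lacked it, 14 fell and 6 rose at 20 μM, and 17 and 11 at 50 μM. Of all genes 28.0% fell and 27.1% rose at 20 μM, and 34.7% and 32.2% at 50 μM. This split used every annotated start, a choice made after a first search was seen. Calls were not counted for the 12 members that kept the core in the narrower setting, and a link of the core to the falls was not tested. HSPA5, with the ER stress element, rose at both doses.

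With cGAMP, the clearest chaperone change was in DNAJA1, the cytosolic DNAJ protein that works with HSPA8. DNAJA1 (chr9:33025211-33039907) was at 154, 153 and 148 CPM in untreated libraries and 329, 293 and 296 with cGAMP. All cGAMP libraries were above every library of the other 3 groups. It rose by 1.01 ± 0.08 (adjusted p = 3.37e-08), or 2.02-fold, and kept its call in all 24 alternatives. The others that rose were DNAJB4 by 0.81 ± 0.16 (adjusted p = 0.00121), DNAJB14 by 0.57 ± 0.10 (adjusted p = 0.000437), DNAJC2 by 0.50 ± 0.10 (adjusted p = 0.00182), DNAJC25 by 0.44 ± 0.12 (adjusted p = 0.0154), and AHSA1, DNAJC13 and DNAJC15 by 0.35 to 0.40. In limma on FPKM, DNAJB4, DNAJB14 and DNAJC25 were at 0.48, 0.46 and 0.29 with a pseudocount of 1 and were not called. The call of DNAJC25 was also lost without the second untreated library (0.39). DNAJC2 overlaps PSMC2 and PMPCB, whose counts came to 315% and 189% of its own.

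The 4 members lower with cGAMP were HSPA2, DNAJC18, DNAJC14 and DNAJC11. DNAJC18 fell by 0.63 ± 0.11 (adjusted p = 0.000326), from 11.4 ± 0.368 to 7.34 ± 0.341 CPM, though not in limma on FPKM (-0.26 with a pseudocount of 1). DNAJC14 fell by 0.35 ± 0.08 (adjusted p = 0.00341), a call lost without the second cGAMP library (-0.26), and DNAJC11 by 0.23 ± 0.08 (adjusted p = 0.0499), a call lost in 21 of 24 alternatives, DESeq2 (-0.22) among them. None of the abundant cytosolic chaperone genes HSPA8, HSP90AB1, HSPB1 and HSP90AA1 passed with cGAMP. The nearest was HSP90AA1 at 0.23 ± 0.12, called with only the 2 groups fitted (0.28), without the filter on low counts (0.27) and without the first 20 μM library (0.29). HSP90AB1, at -0.14 ± 0.08, was called lower in limma on FPKM (-0.20). HSPH1, at 0.32 ± 0.14 (adjusted p = 0.104), was called in 5 of 24 alternatives, each time as an increase.

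Other genes of the pathway that are not members were read in the same fit, from lists chosen by function. Of the 8 subunits of the cytosolic chaperonin CCT, which folds actin and tubulin, 7 fell and none rose at each dose. Their medians were -0.68 and -0.71. The 87.5% that fell compares with 28.0% of all genes at 20 μM and 34.7% at 50 μM. CCT5 fell by 1.07 ± 0.11 (adjusted p = 2.16e-07) and 1.16 ± 0.11 (adjusted p = 3.23e-08), and CCT6A by 1.03 ± 0.12 and 1.47 ± 0.12, while CCT8 stood at 0.01 ± 0.09 and 0.12 ± 0.09. With cGAMP no CCT subunit passed. Of 20 further cochaperones of HSP90 and HSP70, 11 fell at each dose and 2 rose at 20 μM and 4 at 50 μM. STUB1 (CHIP), the ubiquitin ligase of HSP70 clients, fell by 0.49 ± 0.08 and 0.91 ± 0.09, and FKBP4, an HSP90 immunophilin, rose by 0.84 ± 0.10 and 1.18 ± 0.10.

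Among 17 other organelle chaperones, 4 rose and 7 fell at 20 μM and 5 rose and 7 fell at 50 μM. The shares, 23.5% and 41.2%, then 29.4% and 41.2%, compare with 27.1% and 28.0%, then 32.2% and 34.7%, of all genes. Within the ER, the lectin chaperone CALR rose by 0.30 ± 0.08 and 0.31 ± 0.08, whereas HYOU1, the ER member of the HSP110 group, fell by 0.70 ± 0.09 and 0.64 ± 0.09, and SDF2L1, a partner of HSPA5, fell by 0.85 ± 0.10 and 1.59 ± 0.11. HSP90B1, the HSP90 of the ER, rose at 20 μM by 0.28 ± 0.09 (adjusted p = 0.0175) and was 0.14 ± 0.09 at 50 μM. So the rise of HSPA5 was not shared by all ER chaperones. In mitochondria, TRAP1, the HSP90 there, fell by 0.83 ± 0.09 and 1.01 ± 0.09, and the disaggregase CLPB by 1.27 ± 0.08 and 1.38 ± 0.08. Of 8 other genes linked to HSF1, 2 rose and 4 fell at each dose, and SQSTM1 (p62), the autophagy receptor that is a partner of BAG3, rose by 0.73 ± 0.15 and 2.66 ± 0.15 (adjusted p = 0.000448 and 1.2e-10).

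The 6 members too low to test were DNAJB7, DNAJB13, DNAJC12, HSPA12A, HSPA12B and HSPB6, with 10 to 25 counts each over 12 libraries. HSPA12B, an atypical HSP70 of endothelial cells, had 11 counts in untreated, 11 in cGAMP, 3 in 20 μM and 0 in 50 μM libraries, too few for a statement on direction. The 8 tested members that changed in no comparison were DNAJB11, DNAJC4, DNAJC24, DNAJC28, DNAJC30, HSPA1L, HSPB7 and HSPD1. Of these HSPD1, at 599 ± 17.0 CPM in untreated cells, was by far the most expressed.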

How the data were processed

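RNA from 12 THP-1 libraries in 4 groups of 3 was oligo(dT)-selected and read by BGI DNBSEQ sequencing, per the labels' protocols. The authors deposited gene-level expected counts and FPKM, made with RSEM on GRCh38, per the submitters' processing notes. The notes also name DESeq2 1.26.0, whose results are not used here. The RSEM version, annotation release and read strand are not given in the sources used here, so overlapping genes and near-identical copies may exchange reads. Overlaps are named in the results for some members only. Others include HSPA14 with MSANTD7 (same strand, 124% of the member's counts), DNAJC30 with BUD23 (711%) and DNAJA4 with SKIC8 (50.3%). The expected counts deposited were not whole in 42.307% of cells above 0 and were rounded. The 326 unannotated rows, with 0.22% of counts, were left out.

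Members were matched by symbol and placed with GENCODE 29 on GRCh38. Members and lists were chosen with earlier results of these data known. Counts passing filterByExpr (minimum count 10) were given TMM factors (0.9048 to 1.061), and a single model held all 12 libraries and 16628 genes (quasi-likelihood F-test, edgeR 4.0.16, R 4.3.3). An adjusted p-value is this test's p-value corrected by Benjamini-Hochberg over those genes, and a call has one below 0.05. A standard error was obtained by dividing the absolute log2 change by the root of F. An earlier run kept the unannotated rows before they were left out. All changes are relative to the bulk of genes. An exact permutation test of 3 libraries against 3 cannot go below 0.1, so spread is pooled over genes (8 residual and 8.99 prior degrees of freedom). The fit was tested on simulated data.

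Genes described in full are a panel of 23 members chosen by function and, per comparison, the 5 largest called increases and decreases among genes whose groups do not overlap and whose higher group averages 1 CPM or more, 38 members in all. Other members, list genes and HSPA7 are examples chosen with their values in view. The level of 1 marker gene is not reported here. Group levels are means with SD over 3 libraries. Other settings tried were other scalings (RLE, upper quartile), DESeq2 1.42.0, other filters, a replicate block, fits restricted to the 2 groups of a comparison, limma 3.58.1 on the deposited FPKM in log2 with a pseudocount of 1 or 0.1, stricter thresholds, HSPA1A and HSPA1B summed, and each library left out. Promoter windows are RefSeq's. A first search with 1 window a gene missed known starts, and the use of every annotated start was chosen after that result was seen.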

Additional observations from a re-analysis of the deposited data

How the results depend on the processing

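Direction held in every alternative for all but 1 of the 86 called changes of the 38 members described in full. The exception was DNAJC18 at 50 μM, at -0.52 on counts but 0.41 and 0.45 in limma on log2(FPKM + 1) and log2(FPKM + 0.1), and the cause was not tested. Of the 86 calls, 34 held in every alternative and 51 in every alternative but the stricter thresholds. Counts of called members moved by over 1.5 times as follows, with the cause not tested unless named. DESeq2 gave 2 lower with cGAMP, and fitting only the 2 groups gave 13 higher with cGAMP. In limma on log2(FPKM + 1), 2 were higher with cGAMP, 4 at 20 μM, 8 at 50 μM and 7 from 20 to 50 μM. With a pseudocount of 0.1, 2 were higher with cGAMP, 4 at 20 μM and 6 from 20 to 50 μM, and the median of all genes was -0.16 at 50 μM in place of -0.03. By construction, stricter thresholds gave fewer: below 0.01, 2 lower with cGAMP and 6 lower from 20 to 50 μM, and with at least 1.5-fold, 2 higher and 2 lower with cGAMP, 3 and 14 at 20 μM, 5 and 18 at 50 μM and 3 and 2 from 20 to 50 μM. Leaving out a library gave 7 to 10 higher and 1 to 3 lower with cGAMP, 7 to 10 and 19 to 29 at 20 μM, 12 to 18 and 21 to 27 at 50 μM, and 13 to 19 and 6 to 15 from 20 to 50 μM. Members lower with cGAMP fell from 4 to 2 without untreated library 1 or 2 or cGAMP library 3 and to 1 without cGAMP library 2. Those lower from 20 to 50 μM fell from 12 to 6 without 20 μM library 3 and to 7 without 50 μM library 1 or 2. The share of higher calls among members, 66.7% with cGAMP and 55.6% from 20 to 50 μM, was 80.0% and 68.0% with DESeq2 and 28.6% and 36.8% in limma on log2(FPKM + 1), where the shares at 20 and 50 μM were 13.8% and 22.2% beside 24.3% and 31.7%. Chosen after seeing the data, 1 promoter window a gene left the heat shock core in 12 members in place of 21 and the 3-unit run in 4 in place of 7.

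The labels give replicate numbers but do not state whether same-numbered libraries were prepared together. Over 18 same-numbered pairs, deviations from the group means correlated at -0.113 to 0.0671, and pairs with different numbers reached 0.129. No strong effect shared by number was seen, which cannot settle how the libraries were prepared. A replicate block gave 8 higher and 3 lower with cGAMP, 7 and 27 at 20 μM, 13 and 28 at 50 μM, and 15 and 11 from 20 to 50 μM. With 3 libraries a group and 10 to 25 counts, the 6 untested members allow no statement on direction.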
